A study of Caenorhabditis elegans with 9 samples.

Results

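The cytosolic ribosome translates messenger RNA into protein and is built from ribosomal RNA and about one protein from each of a large set of single genes. The large subunit (proteins named RPL) joins amino acids, the small subunit (RPS) reads the message, and the acidic proteins of the stalk (RLA, also called P0, P1 and P2) recruit the factors that drive each step. The proteins are needed in near-equal amounts, and their messages are among the most abundant of growing or egg-producing tissue.

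The genes described here are the 79 entries, of 45461 in the count table, whose deposited name starts with rpl-, rps- or rla-. By these names the large subunit has 48 of them, the stalk genes included, and the small subunit 31. Sequencing libraries were made from whole Caenorhabditis elegans adults, 48 hours after the last larval stage (L4), kept on agar that carried either water, nicotinic acid or 1-methylnicotinamide (MNA), with 3 libraries for each. Nicotinic acid is a precursor of the coenzyme NAD, and MNA is a methylated product of nicotinamide. MNA was given at 1 µM, while the labels give 1 mM for nicotinic acid in one place and 1 nM in another, and neither value equals the MNA dose. No strain, allele or sex is named in the labels, and nothing says that the libraries of a group came from separate cultures, so the p-values reflect only the variation among these samples, which may be technical. In whole animals, fewer cells of a type and less RNA per cell cannot be told apart.

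Library totals ran from 18501261 to 31247605 counts, and 3 counts, taken as the floor of detection, correspond to 0.096 to 0.162 CPM (the count scaled to a common library total). Below, CPM of single genes and of marker sums is also scaled by the TMM factors explained there. CPM per kilobase is not. Between 0.221% and 0.631% of counts fell on ribosomal RNA, and the vitellogenins, yolk protein genes made in the intestine, took 4.94% to 7.17%. Markers of intestine, muscle, germ line, oocytes, epidermis and neurons were all detected, and of 14 sperm markers 13 had counts.

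For 2 of the 79 genes the counts were too few for a test. The entry rpl-16 (M01F1.2, named rpl-13A by RefSeq today), a large-subunit protein, was listed at 0 in each of the 9 libraries, out of 231919334 counts in all. The protein is a core part of the ribosome, so this 0 is not read as a level, and what the counting did with its reads was not tested. The entry rpl-42 (C09H10.1), also of the large subunit, had 1, 1 and 1 counts in the control libraries, 2, 5 and 2 with nicotinic acid and 1, 1 and 0 with MNA. These 8 libraries with a count held at most 5, and no difference between groups was detectable in them. The other 77 genes passed the filter on low counts, and all 77 had counts in every library.

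Levels were first compared between genes, which needs a gene length. The deposited RPKM (reads per kilobase of gene, scaled to library size) gave levels that spread over a factor of 79.3 between the 90th and the 10th percentile of the 77 tested genes. In RPKM the highest were rps-1 at 94001.5, rps-4 at 90928, rps-25 at 61849, rps-18 at 55296.5 and rps-20 at 54958, all of the small subunit, as means over 9 libraries. The lowest, beside rpl-16 and rpl-42, were rpl-37 at 39.5, rpl-24.2 at 45.1 and rpl-2 at 98.7. The lengths behind these values, recovered from counts and RPKM, were 21 bases for each of the 5 highest genes. The same length of 21 bases stood behind rpl-18 and rpl-25.2, and 10 ribosomal protein genes had a length under 100 bases. At the other end, rpl-5, a protein that carries ribosomal RNA into the large subunit, had a deposited length of 6605 bases. The merged exons of the 79 genes measured 236 to 1456 bases in the Ensembl 115 annotation, with a median of 534. The deposited length lay within 10% of the exon length for 4 ribosomal protein genes, was more than 2 times longer for 35 and more than 2 times shorter for 14. Over the 15269 genes compared, 13.3% lay within 10%, and 7.29% of genes with counts in every library had the length of 21 bases. The deposited RPKM was therefore not used to order the genes, and levels below are CPM per kilobase of Ensembl 115 exons. RPKM of 1 gene can still be compared between libraries, since the length cancels.

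**Figure D1:**
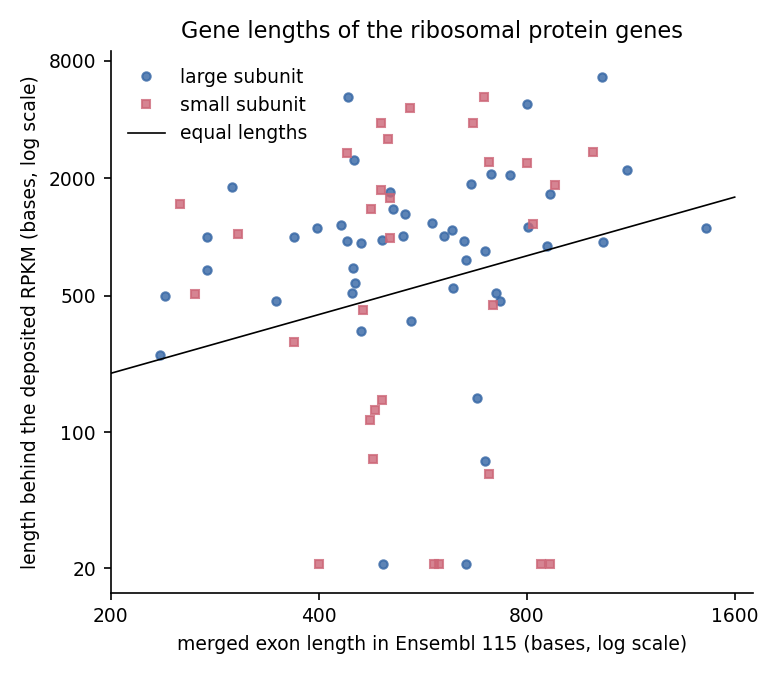
Length of each ribosomal protein gene in the Ensembl 115 exons (horizontal, bases, log scale) against the length behind its deposited RPKM (vertical, bases, log scale), with circles for the large and squares for the small subunit. The exon lengths keep to 236 to 1456 bases, while the deposited lengths run from 21 to 6605 bases and few points lie on the line of equal lengths.

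Per kilobase of exons the ribosomal protein genes were close to each other in level. The 90th and the 10th percentile were 2344 and 996 CPM per kilobase, a ratio of 2.35, with a median of 1775. Of the 77 genes, 69 lay within 2-fold of that median, 8 lay below and 0 above. The median was 1760 for the large subunit and 1942 for the small subunit. With coding length in place of exon length the ratio of the percentiles was 2.31.

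The highest level per kilobase of exons belonged to rps-25, a small-subunit protein used by some viral messages for internal initiation in yeast and human cells. Its level was 2822, 3093 and 3352 in the control libraries, 3558, 3027 and 3475 with nicotinic acid and 3229, 3237 and 3432 with MNA. It stood above the second gene, rps-23, part of the decoding centre, in 9 of 9 libraries, and rps-23 (2889 ± 222, SD, n = 9) stood above rps-8 in 9 of 9. Then came rps-8 at 2711 ± 178, rpl-6 at 2648 ± 141 and rpl-10 at 2607 ± 163 (SD, n = 9), whose order held in 7 of 9 libraries for each neighbouring pair. For most neighbours the order was not fixed. Of the 76 neighbouring pairs in the order of levels, 10 kept their order in 9 of 9 libraries. Neighbours are close by the way they were ordered, from the means of these same libraries, so this count is no test of a difference between genes.

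A break set 6 genes apart at the low end, under 500 CPM per kilobase. These were rpl-11.2 (431 ± 41.1, SD, n = 9), rpl-25.1 (323 ± 23.0), rpl-7A (237 ± 24.99), rpl-2 (191 ± 14.2), rpl-37 (97.5 ± 4.602) and rpl-24.2 (91.3 ± 5.58). The next gene above them, rla-2, stood at 850 ± 44.5. All 6 are counted with the large subunit by their deposited names. Among them rpl-11.2, rpl-25.1 and rpl-24.2 are each one of a pair of similarly named genes. RefSeq today names rpl-24.2 as rsl-24D1, whose human namesake is a ribosome assembly factor rather than a part of the finished ribosome. RefSeq names rpl-37 as rpl-37.2, beside a second gene (rpl-37.1, W01D2.1) that stood at 266 CPM per kilobase. The products of rpl-2 (rpl-8 in RefSeq), which sits beside the catalytic centre, and of rpl-7A are core proteins. Reads that fit several copies of a gene may have been assigned or dropped in a way the sources used here do not state, and such levels are uncertain.

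**Figure D2:**
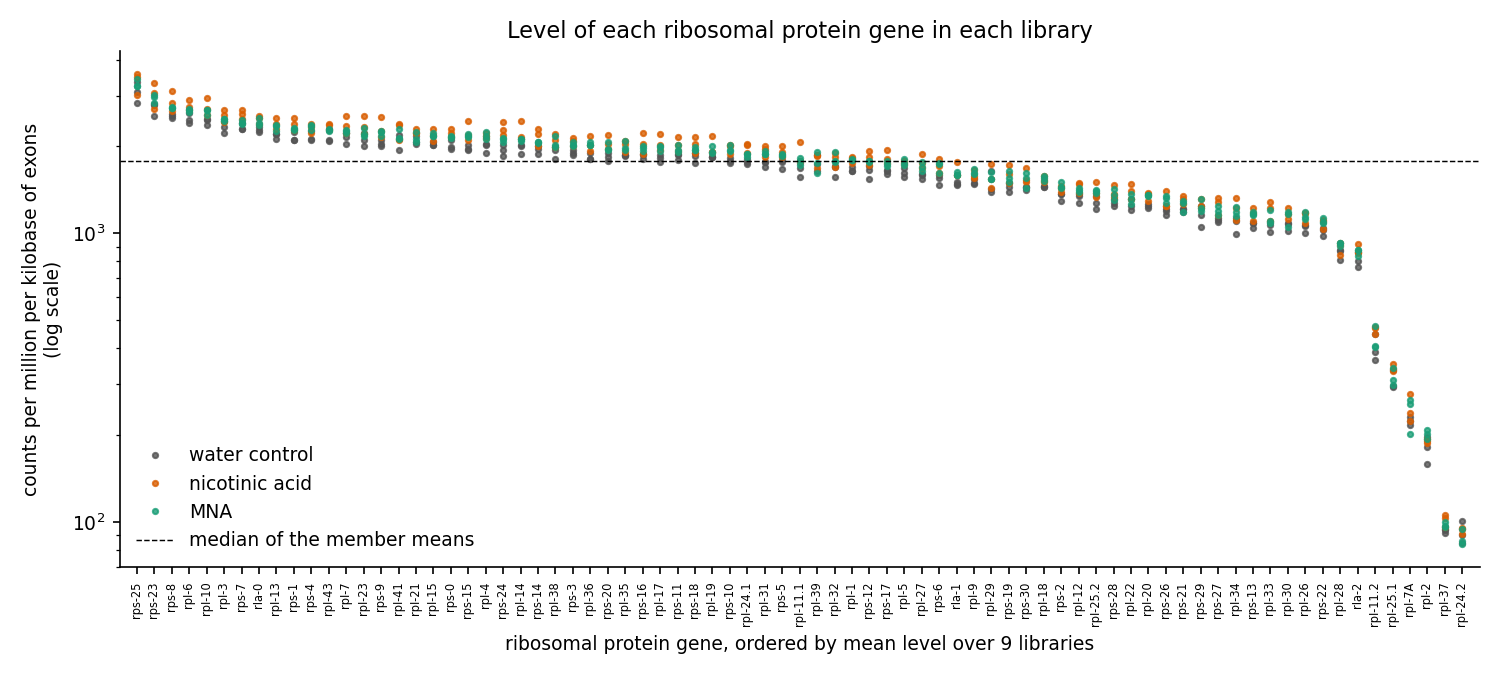
Level of each of the 77 tested ribosomal protein genes in each of 9 libraries, in CPM per kilobase of Ensembl 115 exons (log scale), ordered by the mean. The genes from rps-25 (mean 3247) to rla-2 (mean 850) form a shallow slope around the dashed median of 1775, and 6 genes from rpl-11.2 (431) to rpl-24.2 (91.3) fall away from it.

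Some of these messages share their place in the genome with other genes. In the Ensembl 115 annotation 27 of the 79 genes overlap another gene by their whole spans, introns included. For 15 of them this is a gene on the opposite strand and for 13 a small nucleolar RNA, a class that guides the modification of ribosomal RNA and is often made from introns. Among those named here, rpl-2, rpl-24.2, rpl-37, rpl-39, rpl-28, rpl-7A, rpl-6, rps-18 and rla-1 overlap a gene on the other strand. No strand setting is stated for the counting, so any reads from the shared stretches cannot be told apart by strand. How much of the exons is shared was not measured.

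Together, the ribosomal protein genes took 7.32%, 7.61% and 7.44% of all counts in the control libraries. With nicotinic acid they took 8.62%, 7.82% and 8.21%, and with MNA 7.95%, 7.97% and 8.06%. The lowest treated library lay above the highest control library on this scale, and the means were 7.45% ± 0.145 in control, 8.21% ± 0.400 with nicotinic acid and 7.99% ± 0.0596 with MNA (SD, n = 3 each). After scaling by TMM factors, which correct for differences in library composition, the shares were 7.38%, 7.90% and 7.29% in control, 8.45%, 7.73% and 8.25% with nicotinic acid and 8.04%, 8.10% and 7.84% with MNA. On the scaled values control replicate 2 lay above nicotinic acid replicate 2 and MNA replicate 3, so the groups overlapped. Without the vitellogenins among the counts the unscaled means were 7.997%, 8.73% and 8.50% for control, nicotinic acid and MNA.

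The balance between the subunits was nearly the same in all libraries. Small-subunit genes held 43.0% to 43.5% of the ribosomal protein counts in each of the 9 libraries, with means of 43.2% ± 0.129 in control, 43.3% ± 0.249 with nicotinic acid and 43.3% ± 0.110 with MNA (SD, n = 3 each).

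The genes were also compared library by library. Against the mean of the controls, the median difference over the 77 genes in TMM-scaled CPM, on a log2 scale, was -0.03, 0.07 and -0.03 in the control libraries, 0.16, 0.04 and 0.14 with nicotinic acid and 0.10, 0.10 and 0.07 with MNA. Nicotinic acid replicate 1 held the highest value for 44 of the 77 genes and replicate 3 for 14, MNA replicate 2 for 12, and the other libraries for 3 or fewer each. Control replicates 1 and 3 held the lowest for 37 and 35. Within groups the genes varied little, with a median coefficient of variation of 4.56% (2.64% to 10.7%) against 9.71% over all 13985 genes tested. These values include counting noise, which is larger for genes with fewer counts, and genes of matched level were not compared.

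**Figure D3:**
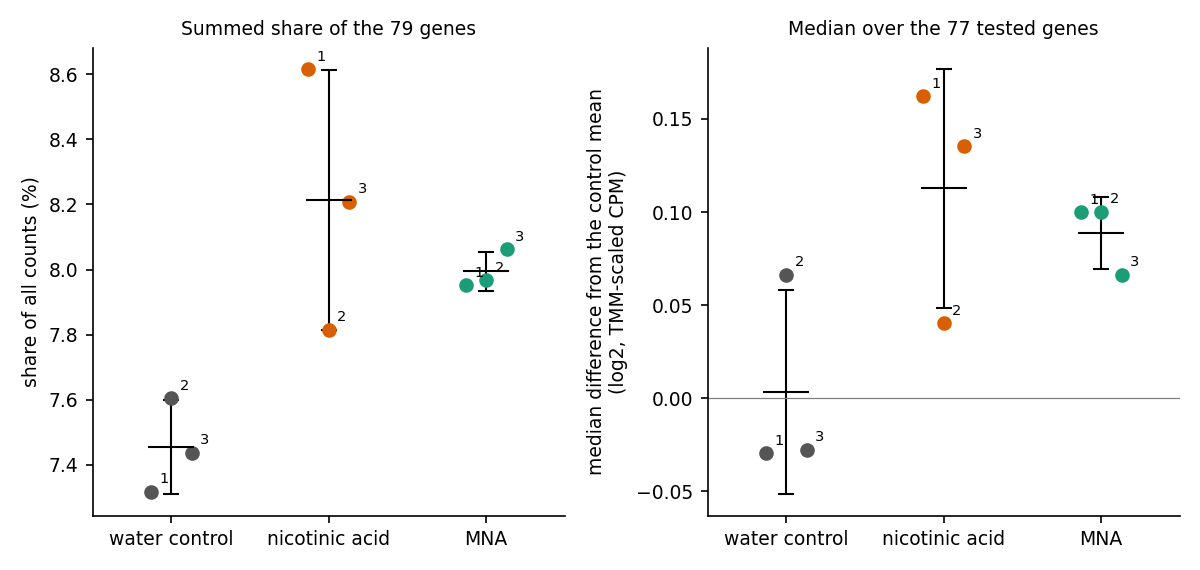
Left, share of all counts (%) held by the 79 ribosomal protein genes in each library. Right, median difference of the 77 tested genes from the control mean (log2, TMM-scaled CPM). Numbered points are replicates and bars the mean and SD of 3 libraries; unscaled, the treated libraries (7.82% to 8.62%) lie above the controls (7.32% to 7.61%), while after scaling control replicate 2 (0.07) lies above nicotinic acid replicate 2 (0.04).

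Other measures moved across the same libraries. Vitellogenins took 6.75%, 7.17% and 6.43% of counts in control replicates 1 to 3, 4.94%, 6.17% and 6.69% with nicotinic acid and 5.92%, 5.95% and 5.86% with MNA. The lowest of these shares was in nicotinic acid replicate 1, with the highest ribosomal protein share, but control replicate 2 held the highest of both among the controls. The 12 intestine markers summed to 66378 to 77855 CPM in control, 51468 to 70934 with nicotinic acid and 60401 to 63664 with MNA. This list includes vit-1 to vit-6, so its sum largely repeats the vitellogenin share. The 14 sperm markers summed to 22.6 to 23.3, 30.2 to 49.4 and 23.4 to 26.5 CPM for control, nicotinic acid and MNA, with the highest value in nicotinic acid replicate 1. Of 10 tested, 7 were called higher with nicotinic acid and 0 with MNA. Their log2 differences from control lay above 0 for 10 of 10 with nicotinic acid and 8 of 10 with MNA. Muscle markers (14) summed to 3728 to 4045, 3997 to 4989 and 3711 to 4388 CPM, with 3 of 14 called higher under nicotinic acid and 0 under MNA. Of the muscle markers 14 lay above 0 with nicotinic acid and 10 with MNA. Oocyte and early embryo markers (16) summed to 13700 to 14999, 12882 to 13645 and 13305 to 14722 CPM, and germ line markers (9) to 2974 to 3278, 3074 to 3237 and 3035 to 3284 CPM, with 0 called in either list. Of the oocyte and early embryo markers 0 of 16 lay above 0 with nicotinic acid and 11 of 16 with MNA. For the germ line markers these counts were 5 and 7 of 9. Epidermis markers (8) summed to 1433 to 1762, 1518 to 1685 and 1349 to 1491 CPM, with 3 called higher under nicotinic acid and 2 under MNA, and neuron markers (9) to 328 to 368, 343 to 392 and 370 to 388 CPM with 0 called. With nicotinic acid 5 of 8 epidermis and 6 of 9 neuron markers lay above 0, and with MNA 4 of 8 and 7 of 9. Of the intestine markers 1 was called lower under MNA, where 0 of 12 lay above 0, against 2 of 12 with nicotinic acid. Over all genes tested 5.34% were called with nicotinic acid (1.94% higher) and 7.41% with MNA (3.63% higher), and 49.9% and 49.2% lay above 0. The part of these markers in the ribosomal protein values was not tested.

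Nicotinic acid was compared with control to ask which of these messages differed under the compound. None of the 77 genes passed an adjusted p of 0.05 in edgeR's quasi-likelihood test, against 5.34% of all genes tested (1.94% called higher). The 77 fitted log2 fold changes were all above 0, from 0.01 to 0.22, with a median of 0.11, a fold of 1.08, beside a median of about 0 (-0.00025) over all 13985 genes. At an unadjusted p below 0.05 there were 20 genes, or 26.0% against 19.2% of all genes. This number rested on single libraries: it was 2, 50 and 11 without control replicates 1, 2 and 3, 4, 45 and 6 without nicotinic acid replicates 1, 2 and 3, and 13 without MNA replicate 1. It was 42 with DESeq2 and 63 with library totals in place of TMM factors. The libraries of both groups did not overlap for 15 genes, all higher, which is 19.5% against 10.7% of all genes called in that direction by the same rule. The upper end of the 95% interval of the change stayed below 1.5-fold for 77 of 77 genes. The median was 0.11 for the large and 0.12 for the small subunit.

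The smallest p in this comparison belonged to rps-24 (T07A9.11), a small-subunit protein whose human counterpart is mutated in Diamond-Blackfan anaemia. Its TMM-scaled CPM was 890, 996 and 905 in control, 1130, 1026 and 1087 with nicotinic acid and 1018, 1000 and 985 with MNA. Each nicotinic acid library lay above each control library. The log2 difference of 0.22 ± 0.06 (SE) had an adjusted p of 0.0584 in edgeR's quasi-likelihood test with Benjamini-Hochberg adjustment, which did not pass. It passed under DESeq2 (adjusted p = 0.00395) and in 7 more of 19 alternatives, over which the adjusted p ran from 0.00395 to 0.216.

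Next was rpl-11.2 (F07D10.1), one of the copies of the protein that helps place ribosomal RNA in the large subunit. It stood at 287, 276 and 321 CPM in control and 321, 340 and 347 with nicotinic acid, with the lowest treated value close above the highest control. The log2 difference was 0.19 ± 0.07 (SE, edgeR adjusted p = 0.128). The gene rpl-24.1 (D1007.12), whose product bridges the subunits, had 955, 995 and 963 CPM in control and 1080, 1022 and 1119 with nicotinic acid, without overlap, and a log2 difference of 0.15 ± 0.06 (SE, edgeR adjusted p = 0.163). The gene rps-27 (F56E10.4), a zinc-binding small-subunit protein, had 408, 427 and 408 CPM in control and 478, 421 and 477 with nicotinic acid. Its nicotinic acid replicate 2 lay among the controls, and the log2 difference was 0.15 ± 0.06 (SE, edgeR adjusted p = 0.168). None of these passed the test. Under single alternatives rpl-11.2 passed with no filter on low counts or with the replicate number as a block, though these numbers share no stated source. The gene rpl-24.1 passed with DESeq2 or library totals and rps-27 without nicotinic acid replicate 2.

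MNA was compared with control in the same fit, and shares the control libraries with the comparison above. Again 0 of 77 genes passed, against 7.41% of all genes tested (3.63% called higher). Of the 77 log2 fold changes 75 lay above 0, from -0.07 to 0.15, with a median of 0.09, a fold of 1.06, beside -0.0027 over all genes. An unadjusted p below 0.05 was reached by 2 genes (2.597%), against 18.9% of all genes. That number too rested on single libraries, with 20 without control replicate 2, 8 without MNA replicate 3, 4 without nicotinic acid replicate 2, 1 without MNA replicate 1 and 0 without control replicate 1 or MNA replicate 2. It was 16 with DESeq2 and 29 with library totals. The groups did not overlap for 21 genes, each higher with MNA, or 27.3% against 11.5% of all genes. The 95% interval stayed below 1.5-fold at its upper end for 77 of 77. The median was 0.09 for each subunit.

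By p the first gene was rpl-36 (F37C12.4), a large-subunit protein, at 632, 651 and 648 CPM in control, 709, 712 and 698 with MNA and 739, 663 and 708 with nicotinic acid. Control and MNA did not overlap, and the log2 difference was 0.13 ± 0.05 (SE, edgeR adjusted p = 0.182). Next was rps-26 (F39B2.6), which lies where the message leaves the small subunit, at 515, 556 and 516 CPM in control and 588, 570 and 578 with MNA, again without overlap. Its log2 difference was 0.13 ± 0.06 (SE, edgeR adjusted p = 0.238). The gene rps-22 (F53A3.3, rps-15A in RefSeq) had 695, 751 and 720 CPM in control and 777, 787 and 778 with MNA, and rps-10 (D1007.6), in the head of the small subunit, had 873, 934 and 861 against 969, 1014 and 924. Their log2 differences were 0.11 and 0.12 (edgeR adjusted p = 0.282 and 0.290). The largest fitted difference, 0.15, was that of rpl-2, whose controls of 158, 177 and 134 CPM overlapped its MNA values of 181, 177 and 163.

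On the other side of 0 were rpl-24.2 (C03D6.8) and rpl-39 (C26F1.9), a very small protein of the tunnel through which the new chain leaves. For rpl-24.2 the values were 52.9, 51.4 and 57.5 CPM in control, 50.7, 49.9 and 53.5 with MNA and 54.1, 52.5 and 56.1 with nicotinic acid. Control and MNA overlapped, and the log2 difference was -0.07 ± 0.05 (SE, edgeR adjusted p = 0.546). For rpl-39 the values were 390, 426 and 432 CPM in control, 417, 389 and 438 with MNA and 433, 394 and 438 with nicotinic acid, and all 3 groups overlapped. Its log2 difference between MNA and control was -0.004, with a sign that changed between alternatives.

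**Figure D4:**
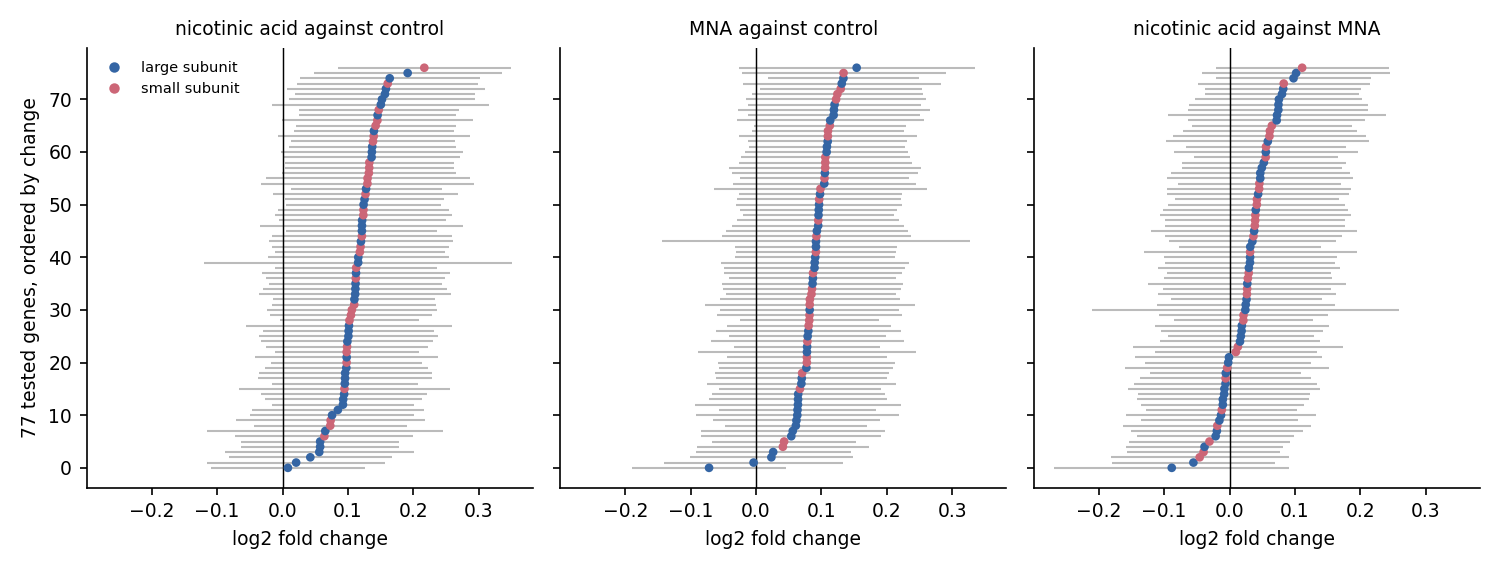
Log2 fold change of each of the 77 tested ribosomal protein genes (points, large or small subunit by colour) with its 95% interval (grey) in the 3 comparisons, ordered within each panel. All 77 points lie above 0 for nicotinic acid against control (0.01 to 0.22), 75 for MNA against control (-0.07 to 0.15) and 55 for nicotinic acid against MNA (-0.09 to 0.11).

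Between the compounds, at doses that differ, the levels were set side by side and the same fit gave 0 of 77 genes past the threshold, against 1.42% of all genes tested. The log2 differences ran from -0.09 to 0.11 with 55 above 0 and a median of 0.03, and 0 had an unadjusted p below 0.05, against 13.6% of all genes. That median was -0.00074, with 38 genes above 0, without nicotinic acid replicate 1, and 0.07 without nicotinic acid replicate 2. The groups did not overlap for 3 genes, rps-24, rps-7 and rpl-21, each higher with nicotinic acid (3.90% against 9.30% of all genes). The first by p was rps-24, with 1081 ± 52.0 CPM under nicotinic acid and 1001 ± 16.5 under MNA (SD, n = 3) and a log2 difference of 0.11 (edgeR adjusted p = 0.474, interval -0.02 to 0.24). Then came rpl-25.1, rpl-11.2 and rpl-24.1 at 0.10, 0.10 and 0.08. On the other side of 0 the smallest p were those of rpl-2 at -0.09, rpl-28 at -0.06, rps-22 at -0.04 and rps-2, which lines the entry of the message channel, at -0.05. All intervals of these differences included 0. Over the 77 genes the lowest lower end was a log2 difference of -0.27 and the highest upper end 0.26, so the compounds are not shown to act alike.

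The stalk genes were read one by one. The gene rla-0 (F25H2.10), which anchors the stalk, had 2342, 2499 and 2310 CPM in control, 2592, 2442 and 2605 with nicotinic acid and 2485, 2532 and 2524 with MNA. The gene rla-1 (Y37E3.7) had 653, 681 and 653, then 762, 692 and 708, then 712, 714 and 698 CPM in the same order, and rla-2 (Y62E10A.1) had 348, 376 and 380, then 407, 380 and 392, then 400, 383 and 383. For rla-1 and rla-2 neither treated group overlapped the controls, while for rla-0 control replicate 2 lay inside both. The gap for rla-2 was very small with nicotinic acid, whose lowest value was 380.1 CPM beside a highest control of 379.8. Of all genes tested, 10.7% were higher without overlap with nicotinic acid and 11.5% with MNA. The log2 differences from control were 0.10, 0.12 and 0.10 with nicotinic acid and 0.08, 0.10 and 0.08 with MNA for rla-0, rla-1 and rla-2, with edgeR adjusted p from 0.233 to 0.573. Per kilobase of exons the anchor rla-0 stood at 2402, rla-1 at 1581 and rla-2 at 850. A further stalk gene by its RefSeq name (rplp-2.1, C37A2.7), which the deposited names do not mark, stood at 1030.

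The genes of 3 pairs share a name but for the last digit, and the share of each gene was followed by library. In the pair rpl-11.1 and rpl-11.2, of which rpl-11.1 has been linked to the germ line in this species, rpl-11.2 held 20.5%, 18.8% and 24.22% of the counts of the pair in control. The shares were 19.4%, 22.8% and 22.8% with nicotinic acid and 19.9%, 20.3% and 23.6% with MNA, so the groups overlapped. In the pair rpl-25.1 and rpl-25.2, copies of a protein at the mouth of the exit tunnel, rpl-25.1 held 18.8%, 17.9% and 21.7% in control, 18.1%, 20.1% and 20.4% with nicotinic acid and 17.6%, 17.98% and 19.9% with MNA. In all 3 groups these ranges overlapped too. In the pair rpl-24.1 and rpl-24.2, which share a deposited name but, by the RefSeq names, may not be copies of the same protein, rpl-24.2 held 5.25%, 4.91% and 5.64% in control, 4.77%, 4.89% and 4.77% with nicotinic acid and 4.78%, 4.57% and 5.10% with MNA. Its nicotinic acid libraries all lay just under the lowest control.

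**Figure D5:**
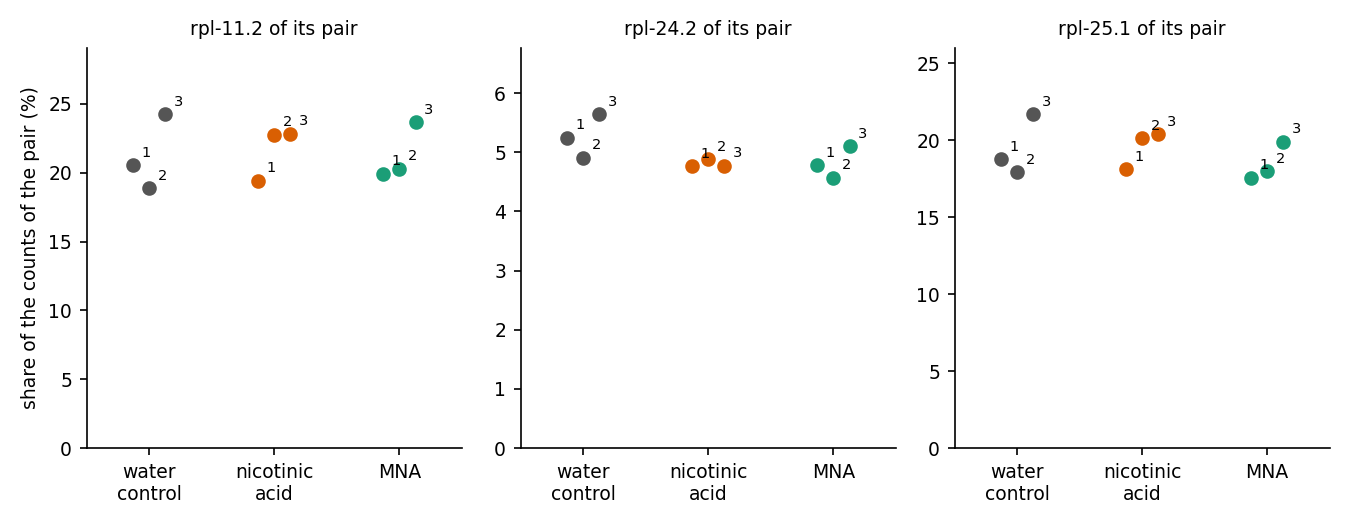
Share (%) of the counts of a gene pair held by rpl-11.2, rpl-24.2 and rpl-25.1 in each library, with points numbered by replicate. Over the 9 libraries the shares lie at 18.8% to 24.22%, 4.57% to 5.64% and 17.6% to 21.7% of the pair, in the order of the panels.

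As for the single genes of these pairs, rpl-11.1 differed from control by 0.15 with nicotinic acid and 0.08 with MNA on the log2 scale, and rpl-11.2 by 0.19 and 0.09. For rpl-25.1 the differences were 0.12 and 0.03, for rpl-25.2 0.11 and 0.11, for rpl-24.1 0.15 and 0.06 and for rpl-24.2 0.01 and -0.07. None passed the test (edgeR adjusted p from 0.128 to 0.962).

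Ribosomal proteins that carry other names were read beside these genes. The genes ubl-1 and ubq-2, which encode ubiquitin joined to a ribosomal protein, and rack-1, a scaffold on the small subunit, were 3 of 3 above 0 and 0 called against each control comparison, with median log2 differences of 0.10 and 0.08 for nicotinic acid and MNA. A further list holds 6 genes outside the rule on deposited names that RefSeq names as ribosomal proteins today, ubl-1 among them. Of these 5 of 6 lay above 0 with nicotinic acid and 3 of 6 with MNA, with medians of 0.11 and 0.03 and 0 called. All genes tested gave 49.9% and 49.2% above 0, with 5.34% and 7.41% called.

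Ribosomal proteins of the mitochondrion, which build a separate ribosome for the few proteins encoded there, gave 0 called of 63 tested in each of the 3 comparisons. Their median log2 difference was 0.07 with nicotinic acid (53 of 63 above 0), 0.01 with MNA (37 of 63) and 0.04 between the compounds. Genes of ribosome biogenesis, which process ribosomal RNA and assemble the subunits, were 17 of 18 above 0 with nicotinic acid and 11 of 18 with MNA, with medians of 0.08 and 0.03 and 0 called. Over all genes tested 49.9% lay above 0 with nicotinic acid and 49.2% with MNA. The shares called were 5.34% with nicotinic acid, 7.41% with MNA and 1.42% between the compounds.

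The remaining parts of the translation machinery were measured with the same fit, and are set beside those same shares over all genes tested. Cytosolic aminoacyl-tRNA synthetases, which charge tRNAs, were 21 of 21 above 0 with nicotinic acid and 18 of 21 with MNA, with a median of 0.05 in each and 0 called. Initiation factors gave medians of 0.03 and 0.04 (17 and 19 of 23 above 0), and elongation and release factors 0.07 and 0.05 (9 and 8 of 10), with 0 called in both lists. Genes of TOR signalling and growth, the pathway known to set ribosome production, gave -0.04 and -0.02, with 2 of 10 above 0 in each and 0 called. Of the 4 genes for nascent chain and poly(A) binding 3 lay above 0 in each control comparison, with medians of 0.05 and 0.03. Only pab-2, which binds the poly(A) tail of messages, was called, and it fell in both. It went from 116 ± 11.9 CPM in control to 80.5 ± 14.6 with nicotinic acid and 81.7 ± 1.67 with MNA (SD, n = 3). The log2 differences were -0.53 ± 0.12 (SE, edgeR adjusted p = 0.0481) and -0.50 ± 0.12 (SE, edgeR adjusted p = 0.0468). These calls were close to the threshold and held in 4 and 7 of 19 alternatives, with adjusted p from 0.00026 to 0.150 and from 0.00042 to 0.165. Each was lost on leaving out any 1 library other than nicotinic acid replicates 1 and 2, and over all 9 such fits the differences ran from -0.39 to -0.63 and from -0.42 to -0.57.

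Properties of the genes that the rule on names did not use were set against the changes. Exon length and the log2 difference had a Spearman correlation over the 77 genes of -0.05 for nicotinic acid and 0.07 for MNA, and mean level gave 0.18 and -0.16, as descriptions over genes that share all libraries. Other genes with exons under 1000 bases (3860 genes) had median log2 differences of 0.01 with nicotinic acid and 0.005 with MNA, beside 0.11 and 0.09 for the ribosomal protein genes, of which 73 of 77 are that short. The other genes were not matched in level or in exact length, and a part of length in the differences was not tested.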

How the data were processed

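The study measured RNA by sequencing in 9 libraries, 3 per group. Total RNA was extracted with QIAzol and libraries were made with a TruSeq kit, per the labels' protocols. The submitters' processing notes name TopHat 1.4.1, HTSeq and CASAVA. Filters, strand setting, annotation and build are not given in the sources at hand, so no coordinates are printed. The authors deposited whole-number counts per gene, with no normalization, and RPKM values. By the values, the deposited RPKM is the count divided by the library total and a whole-number length (15512 of 15512 genes with counts in every library, tolerance 0.01 bases).

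Counts were tested with 1 edgeR 4.0.16 quasi-likelihood fit of all 9 libraries (R 4.3.3, TMM factors, filterByExpr at a minimum count of 10, group as the term, two-sided), which kept 13985 genes and 99.9% of counts. Benjamini-Hochberg adjustment was over all genes tested, with a threshold of 0.05. Because the lengths behind the deposited RPKM differ from the annotated exons, levels are also given per kilobase of exons or coding sequence from Ensembl 115 (WBcel235), an alternative chosen after seeing the data, as was the list of genes by RefSeq names. All 79 genes matched by sequence name. RefSeq gave today's names, other than the deposited one for 20.

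The genes and lists were chosen with earlier results of these data known. Named with values were the extreme levels, the 4 smallest p per comparison and up to 4 genes against the median, stalk genes, gene pairs, genes that failed the filter and called genes of other lists; rps-7 and rpl-21, rpl-2 with MNA, and the genes at the extremes of the level per kilobase of exons were chosen after their values were seen. Alternatives used DESeq2 1.42.0, limma 3.58.1, other scaling, no filter, a replicate block, log2 of RPKM plus 1 or 0.1, and each library left out. Floors cover counting error only. The fit was tested on simulated data.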

Additional observations from a re-analysis of the deposited data

How the results depend on the processing

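For nicotinic acid against control the 0 ribosomal protein genes past the threshold became 1 with limma-voom (rps-24), 1 with log2(RPKM + 1) and 1 with log2(RPKM + 0.1), 2 with DESeq2 and 2 with library totals only (rps-24 and rpl-24.1 in each), and 2 with no filter on low counts (rps-24 and rpl-11.2). It ran from 0 to 2 when 1 library was left out, rising to 1 on dropping control replicate 2 and to 2 on dropping nicotinic acid replicate 2. The cause was not tested. In the other comparisons it stayed at 0 under each alternative run. On leaving out a library the medians ran from 0.09 to 0.15 for nicotinic acid and 0.07 to 0.13 for MNA against control, and from -0.00074 to 0.07 between the compounds. The shares without vitellogenins were 7.997%, 8.73% and 8.50%. The ratio of the 90th to the 10th percentile of levels fell from 79.3 to 2.35 per exon length and 2.31 per coding length, by the change of length alone. The sign turned for 3 small log2 differences. For rpl-24.2 with nicotinic acid it was -0.0013, -0.0227 and -0.0126 without control replicate 1, control replicate 2 and nicotinic acid replicate 3, in a range up to 0.0582. For rpl-25.1 with MNA it was -0.00264 and -0.0112 without control replicate 1 and MNA replicate 3, in a range up to 0.0727. For rpl-39 with MNA it was 0.000388 with DESeq2 size factors, 0.0102 with library totals, 0.00278 with no filter, 0.000373 with DESeq2, 0.00911 with either RPKM offset, and 0.0139, 0.0243 and 0.0419 without control replicates 2 and 3 and MNA replicate 2, in a range from -0.0454. Library totals in place of TMM moved the median of all genes by 0.024. Low counts limit rpl-42.

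The replicate numbers share no stated source. Deviations of same-numbered libraries correlated at -0.20 to 0.16 over all genes and at -0.02 to 0.63 over the 77 ribosomal protein genes, and 12 of 18 best matches had the same number. With the replicate number as a block 1 ribosomal protein gene passed for nicotinic acid against control (rpl-11.2, adjusted p = 0.0390) and 0 in the other comparisons; pab-2 did not pass in either.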
